A study of Mus musculus with 12 samples.

Results

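The unfolded protein response genes described here are 10 genes that act in or report on protein folding in the endoplasmic reticulum (ER), chosen by name through a rule that uses no measured value, though with earlier results of these data known. They are the chaperones and folding enzymes Hspa5, Hsp90b1, Calr, Pdia4 and Sdf2l1, the degradation factor Herpud1, the transcription factors Xbp1, Atf4 and Ddit3, and the pseudokinase Trib3. They were measured by 11 probes of 39429 on the array, with 2 probes for Atf4 and 1 for each other member, and all 10 were among the 19054 genes fitted. Pituitary RNA came from 12 female C57BL/6J mice aged 2 months in 3 diet groups of 4, namely a control group on normal diet, an early life group fed a diet deficient in vitamin D during early life, and a peripubertal group fed that diet around puberty. The labels name no transgene or other treatment, and the 4 females of a group are described as biological replicates. The question was whether either period of deficiency was followed by a different level of these genes in the adult gland.

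When unfolded proteins build up in the ER, the membrane sensors Ire1, Perk and Atf6 are released from the chaperone Hspa5 and start the unfolded protein response. Ire1 splices the mRNA of Xbp1 and Atf6 is cut to a free transcription factor, and both raise genes for chaperones and for ER-associated degradation, while Perk slows translation and so favours the making of Atf4, which raises Ddit3 and Trib3. Hormone-secreting cells of the pituitary pass large amounts of protein through the ER and keep chaperones at a high level without stress.

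Each of the 6 two-colour arrays carried 2 animals of the same group, the odd-numbered animal in Cy3 and the even-numbered in Cy5. Both control arrays lay on 1 slide and the 4 arrays of the deficient groups on a second one. By the scan dates in the file headers, each slide also had a scan session of its own. In a comparison with control, slide and scan session thus cannot be told apart from the diet. Between 50.6% and 67.2% of spots of a sample were well above background. The authors' value table assigns the 8 deficient samples the other way round from the scanner files: each of its 8 deficient columns equals a scanned channel of the other deficient group within 0.001 log2 at 100% of spots, and its control columns equal no channel. Group names here follow the scanner files, and under the table's assignment every early life value would be peripubertal and the reverse. The pituitary hormone genes Gh, Prl, Pomc, Lhb, Fshb and Tshb were all kept in the fit.

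Some promoters of ER chaperone genes hold an element through which the response is known to act, and the 4 member promoters in which one was found are shown. The ER stress response element (ERSE), bound by Atf6 and Xbp1 with NF-Y, was searched on both strands as CCAAT and CCACG with 9 bases between them, and ERSE-II as ATTGG and CCACG with 1 base between them. The 250 bases before the RefSeq start (build GRCm38.p6) are given 5′ to 3′ on the strand of the gene, with the matches in capitals.
Hspa5 promoter, chr2:34771840-34772089, strand +: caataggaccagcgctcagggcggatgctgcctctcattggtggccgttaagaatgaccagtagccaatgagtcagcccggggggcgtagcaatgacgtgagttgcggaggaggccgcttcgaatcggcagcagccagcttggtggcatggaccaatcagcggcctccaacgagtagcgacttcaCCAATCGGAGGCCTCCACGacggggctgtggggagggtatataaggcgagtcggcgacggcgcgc
Hsp90b1 promoter, chr10:86705445-86705694, strand -: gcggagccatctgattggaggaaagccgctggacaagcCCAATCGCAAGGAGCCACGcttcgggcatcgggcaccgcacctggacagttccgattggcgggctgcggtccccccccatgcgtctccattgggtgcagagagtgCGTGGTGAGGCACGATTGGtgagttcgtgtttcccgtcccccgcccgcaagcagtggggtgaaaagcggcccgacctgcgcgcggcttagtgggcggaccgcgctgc
Calr promoter, chr8:84846932-84847181, strand -: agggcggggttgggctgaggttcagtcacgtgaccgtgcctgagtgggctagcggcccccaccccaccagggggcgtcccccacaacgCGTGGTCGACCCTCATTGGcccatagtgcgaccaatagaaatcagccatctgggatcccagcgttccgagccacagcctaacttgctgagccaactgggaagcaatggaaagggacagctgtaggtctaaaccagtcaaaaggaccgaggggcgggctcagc
Herpud1 promoter, chr8:94386179-94386428, strand +: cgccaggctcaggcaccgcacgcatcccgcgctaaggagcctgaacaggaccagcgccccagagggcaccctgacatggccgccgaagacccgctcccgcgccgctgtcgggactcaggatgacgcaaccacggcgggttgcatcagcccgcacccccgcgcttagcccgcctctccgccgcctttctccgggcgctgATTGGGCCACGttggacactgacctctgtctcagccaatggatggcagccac
The ERSE match began 65 bases before the start in Hspa5, 212 and 107 bases before it in Hsp90b1 and 162 bases before it in Calr, and the ERSE-II match began 52 bases before the start in Herpud1. In windows from 250 bases before to 50 after the start, ERSE was found in 39 of 32851 RefSeq promoters (0.119%) and in 3 of the 10 members, and ERSE-II in 12 promoters (0.0365%), of which Herpud1 was 1. The core TGACGTGG bound by Xbp1 stood in 0.676% of promoters and in no member, and the Atf4 site searched as TGATGCAA in 0.895% of promoters and in Herpud1. The bare CCAAT box, which is also contained in ERSE, stood in 37.4% of promoters and in 8 members. A match is a description of letters and not of binding, and the array did not measure binding.

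Levels are log2 single-channel intensities after background correction, dye loess and scaling between arrays. A spot that the scanner software marked as an outlier was lost for both animals of its array, which removed 4 of 40 member values in control, 12 in early life and 10 in peripubertal samples. Of all spots other than controls, 1.68% to 1.9% were lost in control, 6.54% to 7.34% in early life and 3.85% to 5.08% in peripubertal samples. Members thus lost a larger share than the whole array in each group. Hspa5, Ddit3, Pdia4 and Sdf2l1 had all 12 values. Every member value that was kept was well above background, and none was saturated. Probes differ in brightness for technical reasons, so levels are compared between samples within a gene and not between genes. In whole gland RNA, fewer cells of a type and less RNA per cell cannot be told apart.

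**Figure D1:**
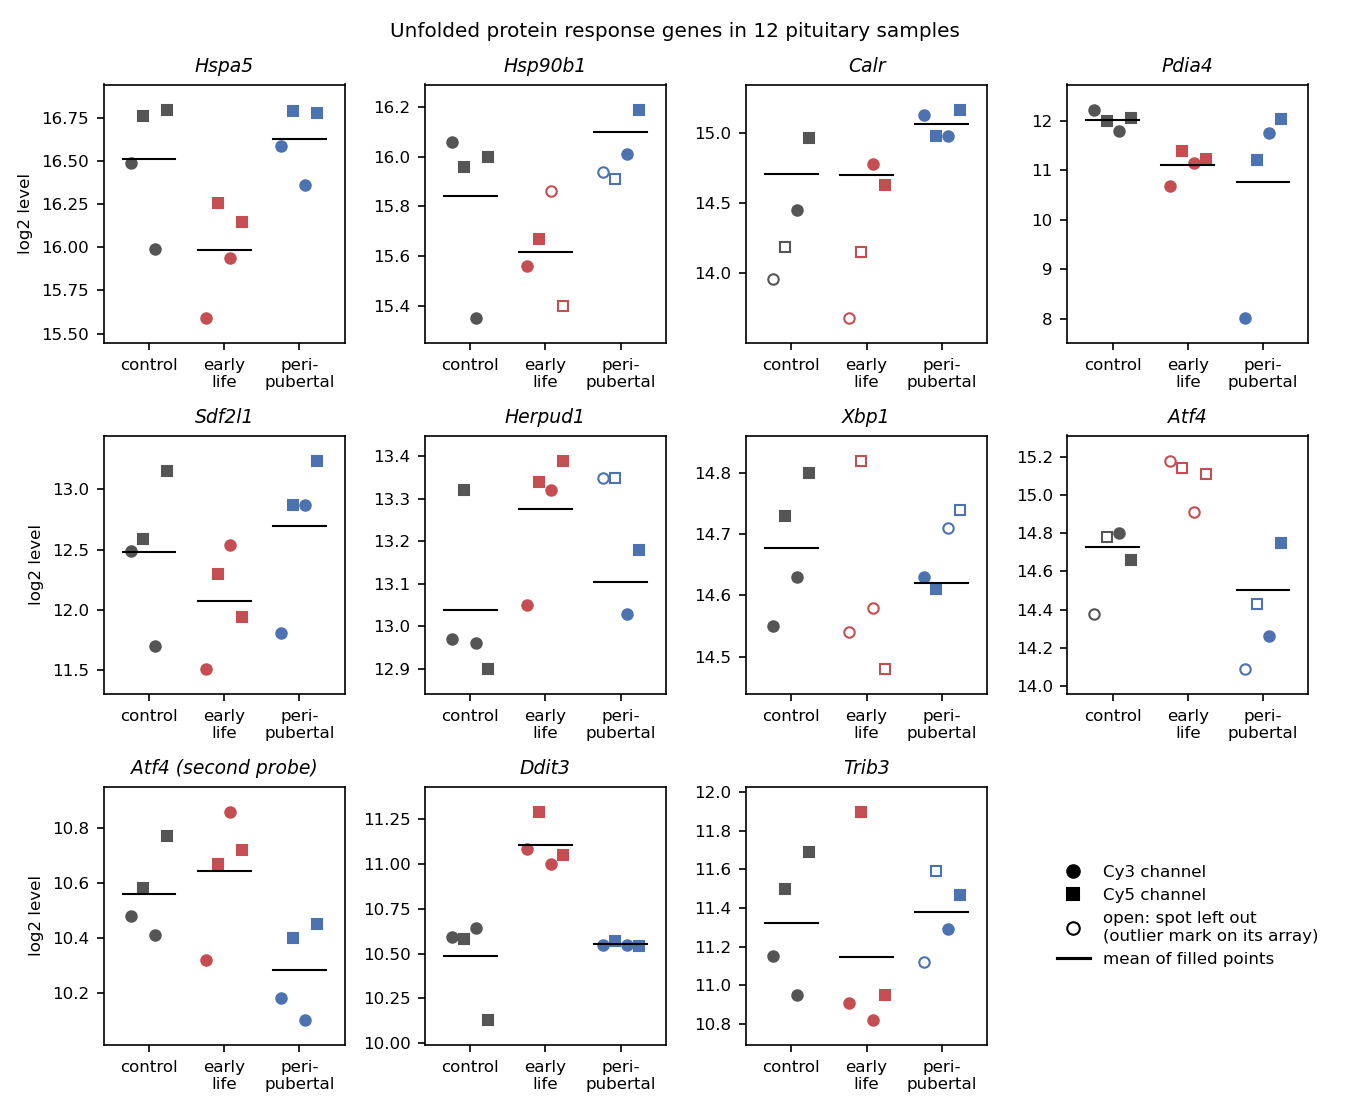
Log2 level of each unfolded protein response gene in the 12 pituitary samples (y axis, own scale per gene) by diet group (x axis). Circles are Cy3 and squares Cy5 channels, open symbols are spots left out because of an outlier mark, and lines are means of the filled points. Early life Ddit3 values (11 to 11.29) lie above all 8 others, and early life Hspa5 values (15.59 to 16.26) lie below all 4 peripubertal ones.

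None of the 10 members differed between groups after Benjamini-Hochberg adjustment over all genes in limma, at a threshold of 0.05. The count was 0 of 8 members for early life against control, where 0.0979% of 18385 genes passed. It was 0 of 10 for peripubertal against control, where 0.0213% of 18772 genes passed, and 0 of 8 for early life against peripubertal, where 0.334% of 18240 genes passed. At an unadjusted p under 0.05, Hspa5 and Ddit3 were counted in both comparisons of early life, beside 17.2% of all genes against control and 20.3% against peripubertal, and no member in the comparison of peripubertal with control, beside 5.09% of all genes. With 2 of 8 members, both shares lie near the background of all genes.

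Hspa5 encodes BiP, the main Hsp70 chaperone of the ER, which also holds the stress sensors inactive. Its log2 levels were 16.49, 16.76, 15.99 and 16.80 in control 1 to 4, 15.59, 16.26, 15.94 and 16.15 in early life 1 to 4, and 16.59, 16.79, 16.36 and 16.78 in peripubertal 1 to 4. Every early life sample lay below the 4 peripubertal ones, while control 3 lay within the early life range. The Cy5 channel was brighter than the Cy3 channel on 6 of 6 arrays, by 0.43 on average, so part of the spread within a group follows the dye, which the fit includes.

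The mean level of Hspa5 was 16.51 ± 0.37 (SD, n = 4) in the control group, 15.99 ± 0.29 in the early life group and 16.63 ± 0.20 in the peripubertal group. The early life level was lower than the peripubertal one by a log2 difference of -0.64 (SE 0.16, 95% interval -0.99 to -0.29), a ratio of 0.64, which did not pass (limma, adjusted p = 0.0979). Against control the difference was -0.53 (SE 0.16, interval -0.88 to -0.18, adjusted p = 0.167), with a range of -0.64 to -0.13 over 30 settings of which the last was median centring (adjusted p = 0.879), and peripubertal against control it was 0.12 (SE 0.16, adjusted p = 0.999). The peripubertal and control means thus differed by less than their spread. Over 30 settings the early life difference from peripubertal ran from -0.71 to -0.36, and it passed without early life 3 (-0.71, adjusted p = 0.0373), without the array of early life 3 and 4 (-0.70, adjusted p = 0.0295) and with array-mates treated as independent (adjusted p = 0.023).

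Hsp90b1 encodes Grp94, the Hsp90 chaperone of the ER. Its levels were 16.06, 15.96, 15.35 and 16 in control 1 to 4, 15.56 and 15.67 in early life 1 and 2, and 16.01 and 16.19 in peripubertal 3 and 4. The lost spots read 15.86 and 15.40 in early life 3 and 4 and 15.94 and 15.91 in peripubertal 1 and 2. With all spots counted, the early life values lay below the peripubertal ones and overlapped control only through control 3. Among genes with 12 unmarked values, a set without Hsp90b1, early life and peripubertal did not overlap for 17.7%. The log2 difference of early life was -0.49 from peripubertal (SE 0.28, adjusted p = 0.363) and -0.22 from control (SE 0.24, adjusted p = 0.669).

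Calr encodes calreticulin, a calcium-binding lectin chaperone that folds glycoproteins, a class to which the gonadotropins and thyrotropin belong. Its levels were 14.45 and 14.97 in control 3 and 4, 14.78 and 14.63 in early life 3 and 4, and 15.13, 14.98, 14.98 and 15.17 in peripubertal 1 to 4. The lost spots read 13.96 and 14.19 in control 1 and 2 and 13.68 and 14.15 in early life 1 and 2. With lost spots counted, the 4 peripubertal values lay above every control and early life value, with control 4 at 14.97 the nearest. Among genes with 12 unmarked values, a set without Calr, peripubertal and control did not overlap for 7.85%. Early life and peripubertal did not overlap for 17.7% of that set. Calr differed by 0.36 between peripubertal and control (SE 0.22, interval -0.16 to 0.88, adjusted p = 0.999) and by -0.36 between early life and peripubertal (SE 0.22, adjusted p = 0.39), so neither passed. Early life against control was 0.00 (SE 0.26, interval -0.60 to 0.60), and its sign depended on the scaling, with 0.10 from the software's processed signals and 0.64 after median centring.

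Pdia4 encodes ERp72, a disulfide isomerase that forms and rearranges disulfide bonds. Its level was decided in 1 group by 1 spot, so the probe is shown (mm9, chr6:47746516-47746575, strand -).
Pdia4 probe: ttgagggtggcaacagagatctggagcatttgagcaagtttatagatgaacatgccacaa
Pdia4 levels were 12.23, 12, 11.79 and 12.05 in control, 10.68, 11.40, 11.15 and 11.23 in early life, and 8.02, 11.22, 11.76 and 12.04 in peripubertal 1 to 4. The early life values all lay below control, while the peripubertal values spanned both, with peripubertal 1 far below the other 11 samples. That spot carried no outlier mark, and its array-mate read 11.22 on the same spot. The early life mean of 11.12 ± 0.31 and the control mean of 12.02 ± 0.18 differed by -0.90 (SE 0.75, interval -2.55 to 0.75, adjusted p = 0.555), with an error that the peripubertal mean of 10.76 ± 1.86 enlarges. Early life against peripubertal was 0.36 (SE 0.75, adjusted p = 0.815), and in a fit added after seeing the data, without this spot on the array of peripubertal 1 and 2, it was -0.78 (adjusted p = 0.136), so its sign rested on that spot.

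Sdf2l1 encodes a small ER protein that works with the BiP cochaperone Dnajb11. Its levels were 12.49, 12.59, 11.70 and 13.15 in control, 11.51, 12.30, 12.54 and 11.94 in early life, and 11.81, 12.87, 12.87 and 13.24 in peripubertal samples. All 3 groups overlapped, and the Cy5 channel was the brighter one on 5 of 6 arrays. The early life mean of 12.07 ± 0.45 and the peripubertal mean of 12.70 ± 0.62 differed by -0.62 (SE 0.38, adjusted p = 0.371), and the difference from control was -0.41 (SE 0.38, adjusted p = 0.609).

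Herpud1 encodes an ER membrane protein of the degradation machinery, the member with an ERSE-II match. Its levels were 12.97, 13.32, 12.96 and 12.90 in control, 13.05, 13.34, 13.32 and 13.39 in early life, and 13.03 and 13.18 in peripubertal 3 and 4, with lost spots at 13.35 in both peripubertal 1 and 2. Early life values lay above control 1, 3 and 4, and control 2 lay within their range. The difference of early life from control was 0.24 (SE 0.14, interval -0.07 to 0.55, adjusted p = 0.399). Early life minus peripubertal was 0.17 (SE 0.17, adjusted p = 0.598), also within the spread.

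Xbp1 encodes the factor made from the mRNA that Ire1 splices. Its probe gave 1 level for the gene, and spliced and unspliced forms were not measured separately here. The levels were 14.55, 14.73, 14.63 and 14.80 in control, and 14.63 and 14.61 in peripubertal 1 and 2. All 4 early life spots were lost and read 14.54, 14.82, 14.58 and 14.48, and lost peripubertal spots read 14.71 and 14.74. The groups overlapped, and peripubertal against control was -0.06 (SE 0.16, adjusted p = 0.999), a sign that turned to 0.06 with the processed signals and 0.01 after median centring. With marked spots kept, early life against control was -0.07 (SE 0.13, adjusted p = 0.812).

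Atf4 encodes the factor whose translation Perk favours, so its mRNA level is only a part of its regulation. Its brighter probe (mm9, chr15:80087902-80087961, strand +) lost all 4 early life spots to outlier marks, which is why the dimmer probe, measured in all 12 samples, is shown (mm9, chr15:80086639-80086698, strand +).
Atf4 dimmer probe: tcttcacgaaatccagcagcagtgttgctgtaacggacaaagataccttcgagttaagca
This probe read 10.48, 10.58, 10.41 and 10.77 in control, 10.32, 10.67, 10.86 and 10.72 in early life, and 10.18, 10.40, 10.10 and 10.45 in peripubertal samples. Of the 4 early life values, 3 lay above all peripubertal values, and control overlapped both groups. In an estimate added after seeing the data, early life minus peripubertal was 0.36 (SE 0.14, adjusted p = 0.201) and early life minus control 0.08 (SE 0.14, adjusted p = 0.803).

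The brighter Atf4 probe kept 14.80 and 14.66 in control 3 and 4 and 14.26 and 14.75 in peripubertal 3 and 4, which gave a difference of -0.23 between peripubertal and control (SE 0.29, adjusted p = 0.999), turned to 0.48 by median centring. Its lost spots read 14.38 and 14.78 in control 1 and 2, 14.09 and 14.43 in peripubertal 1 and 2, and 15.18, 15.14, 14.91 and 15.11 in early life 1 to 4. With marked spots kept, the 4 early life values lay above all 8 others, by 0.70 against peripubertal (SE 0.17, adjusted p = 0.125) and by 0.43 against control (SE 0.17, adjusted p = 0.292). Among the 14386 genes with 12 unmarked values, early life lay above all 8 others for 3.31%. No such share was taken with marked spots kept, and the dimmer probe did not separate early life from control. Both probes thus had higher early life than peripubertal means, and neither passed.

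Ddit3 encodes Chop, the transcription factor that rises late in the Perk branch and is known for promoting cell death under lasting stress. It was the only member with 12 values whose early life samples lay above all others, so its probe is shown. The 60 bases span chr10:126732518-126732821 on strand + of mm9, a genomic stretch of 304 bases.
Ddit3 probe: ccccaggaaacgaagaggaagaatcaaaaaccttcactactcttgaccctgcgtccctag
Ddit3 levels were 10.59, 10.58, 10.64 and 10.13 in control, 11.08, 11.29, 11 and 11.05 in early life, and 10.55, 10.57, 10.55 and 10.54 in the peripubertal group. Each early life animal exceeded the 8 animals of the other groups, which held for 476 of the 14386 genes with 12 values, or 3.31%. The peripubertal samples lay between 10.54 and 10.57, inside the control range, and control 4 was the lowest of all 12 samples.

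The early life mean of Ddit3 was 11.11 ± 0.13 (SD, n = 4), against 10.48 ± 0.24 in control and 10.56 ± 0.02 in peripubertal samples. The log2 difference from control was 0.62 (SE 0.15, interval 0.28 to 0.96), a ratio of 1.54, and did not pass (limma, adjusted p = 0.131). The difference from peripubertal was 0.55 (SE 0.15, interval 0.21 to 0.89, adjusted p = 0.11), a ratio of 1.46, while peripubertal against control was 0.07 (SE 0.15, adjusted p = 0.999). Without control 4 the difference from control was 0.49 (adjusted p = 0.411). Without the array of early life 3 and 4 both differences passed, at 0.70 from control (adjusted p = 0.0327) and 0.63 from peripubertal (adjusted p = 0.0399), as they did with array-mates treated as independent (adjusted p = 0.0334 and 0.0305).

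Trib3 encodes a pseudokinase raised by Atf4 and Ddit3 that in turn restrains them. Its levels were 11.15, 11.50, 10.95 and 11.69 in control, 10.91, 11.90, 10.82 and 10.95 in early life, and 11.29 and 11.47 in peripubertal 3 and 4, with lost spots at 11.12 and 11.59 in peripubertal 1 and 2. Early life 2 was the highest of all samples, the other 3 early life animals lay between 10.82 and 10.95, and the groups overlapped. The Cy5 channel was brighter on 5 of the 5 arrays that measured it, by 0.48 on average. The difference of early life was -0.18 from control (SE 0.23, adjusted p = 0.721), turned to 0.06 by median centring, and -0.24 from peripubertal (SE 0.28, adjusted p = 0.66).

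**Figure D2:**
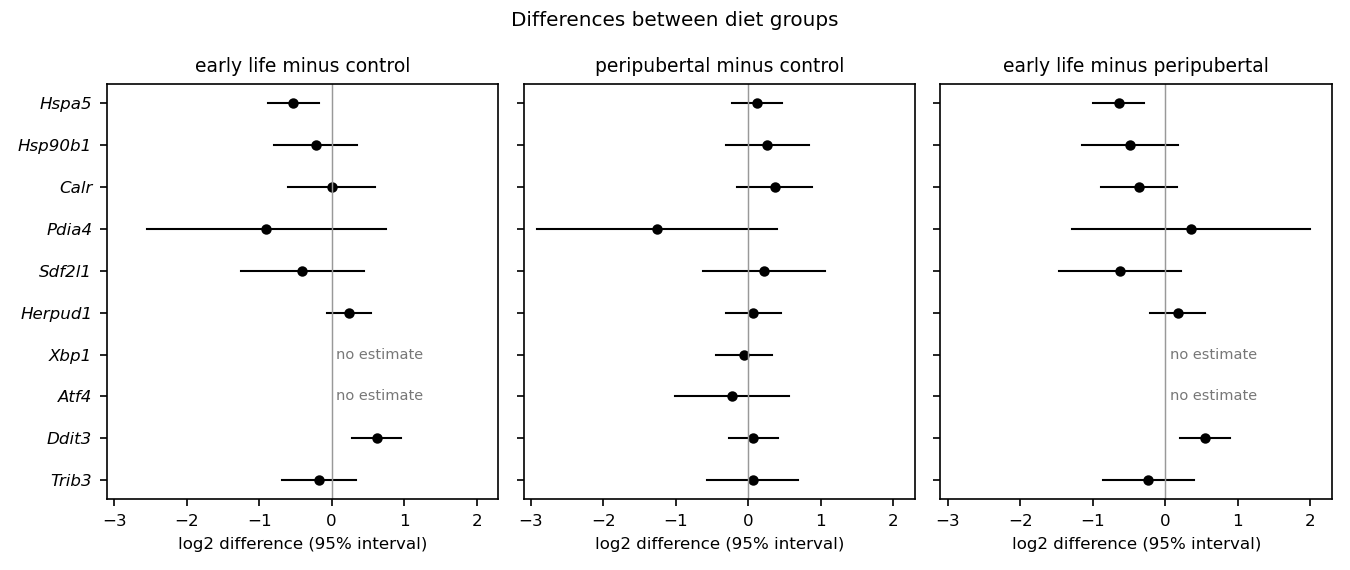
Log2 differences between diet groups with 95% intervals from limma (x axis) for the 10 members (y axis). Hspa5 and Ddit3 have intervals clear of 0 in both comparisons of early life, at -0.53 and 0.62 against control and -0.64 and 0.55 against peripubertal, though neither passed after adjustment. Xbp1, and Atf4 by its brighter probe, have no estimate for early life because these probes' spots there were lost.

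Among the 4 members with 12 values, the groups did not overlap for Ddit3 and Pdia4 between early life and control, where this held for 12.1% of 14386 genes, and for Hspa5 and Ddit3 between early life and peripubertal, where it held for 17.7%. No such member separated peripubertal from control, where it held for 7.85% of genes. The median difference over measured members was -0.20 for early life against control (2 of 8 higher), 0.07 for peripubertal against control (7 of 10 higher) and -0.30 for early life against peripubertal (3 of 8 higher). The medians over all genes were 0.03, 0.01 and 0.03, with 9835 of 18385, 9654 of 18772 and 9831 of 18240 genes higher. After median centring of channels, which moved the all-gene medians to 0.17, 0.14 and 0.05, the member medians were 0.12, 0.37 and -0.28, so the sign of the first depended on the scaling. Both comparisons with control share the control samples, and both of early life share the early life samples.

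A summary of the chaperone level in each sample was the mean deviation of Hspa5, Hsp90b1, Calr and Sdf2l1 from the mean of their dye, with marked spots kept. It was 0.10, -0.08, -0.28 and 0.28 in control 1 to 4, -0.57, -0.36, 0.13 and -0.42 in early life 1 to 4, and 0.21, 0.19, 0.40 and 0.39 in peripubertal 1 to 4. Peripubertal samples were all above early life samples. Single genes with 12 unmarked values did not overlap between these groups for 17.7%, and no such share was taken for means over several genes. The mean of the erythroid markers described below also separated them, at most -0.40 in early life and at least 0.51 in peripubertal samples. Those of the degradation genes and the macrophage markers overlapped. Control lay between -0.28 and 0.28, with early life 1, 2 and 4 below that range and peripubertal 3 and 4 above it. With Pdia4 included the groups overlapped, since peripubertal 1 stood at -0.41, below early life 2 at -0.34 and early life 3 at 0.15. The same summary over Atf4 (dimmer probe), Ddit3 and Trib3 lay between -0.07 and 0.02 in control, between -0.03 and 0.35 in early life and between -0.12 and -0.07 in peripubertal samples.

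Early life 2 held the highest value of that second summary, and early life 4 lay within the control range. The mean over all 10 members lay between -0.06 and 0.15 in control, between -0.25 and 0.14 in early life and between -0.21 and 0.22 in peripubertal samples, so a single level over all members did not separate the diets. The 2 partial summaries were chosen after the values were seen, Pdia4 was left out of the first because of its 1 low spot, and neither was tested. Over the 12 channels, with dye means removed and marked spots kept, Hspa5 correlated with Hsp90b1 at r = 0.79, with Sdf2l1 at 0.63, with Calr at 0.53 and with Pdia4 at -0.08, and with Trib3 at 0.47, Xbp1 at 0.34, Herpud1 at -0.15, Atf4 (dimmer probe) at -0.39 and Ddit3 at -0.81, as a description of points that share arrays and a scaling.

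**Figure D3:**
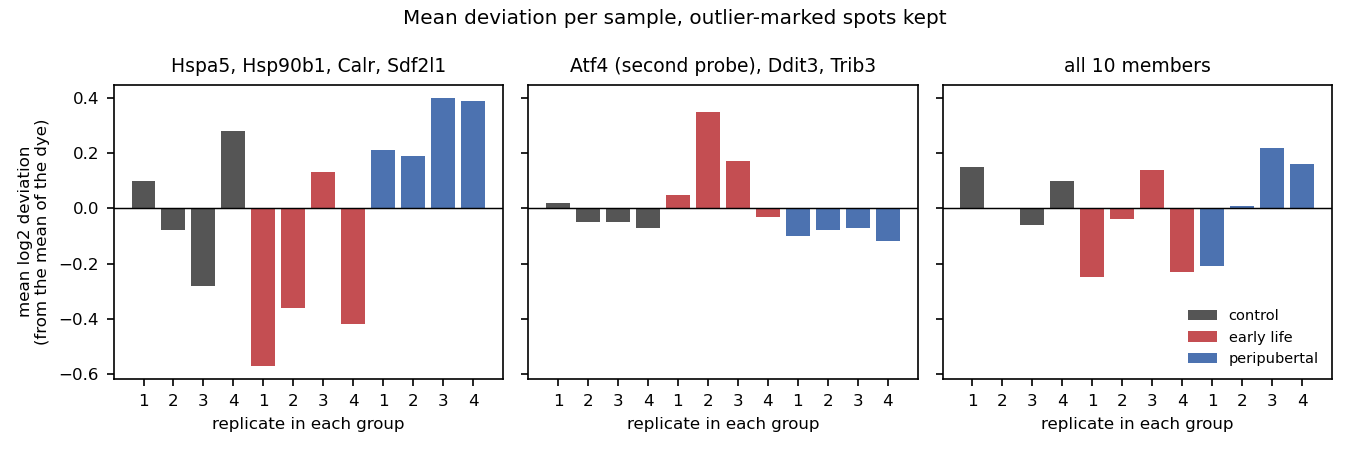
Mean log2 deviation from the mean of the dye in each of the 12 samples (y axis), by replicate (x axis) and diet group (colour), for 4 chaperone genes, for Atf4, Ddit3 and Trib3, and for all 10 members. In the first panel the 4 peripubertal samples lie between 0.19 and 0.40 and 3 of the 4 early life samples between -0.57 and -0.36, with early life 3 at 0.13.

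Other genes of the pathway were read from 5 lists. Over all genes, 8409 of 18240 were lower in early life than in peripubertal samples and 8550 of 18385 lower than in control. Peripubertal levels were higher than control for 9654 of 18772. Genes of a list share samples, arrays and a scaling, and their counts of directions were not tested. Of the sensors and regulators, none of 12 passed between early life and control or between early life and peripubertal, and none of 13 between peripubertal and control. Early life levels were lower than peripubertal ones for 11 of these 12 genes, with a median of -0.32, and lower than control for 9 of 12, with a median of -0.21. Median centring kept both medians below 0, at -0.26 and -0.07. The smallest p belonged to Creb3, an ER-tethered transcription factor, at -0.86 against peripubertal (SE 0.20, adjusted p = 0.0986) and -1 against control (SE 0.20, adjusted p = 0.112). Its early life level rested on 2 samples of a single array. Atf6, the sensor that becomes a transcription factor, followed at -0.78 (SE 0.21, adjusted p = 0.109) and -0.66 (SE 0.21, adjusted p = 0.191). Between peripubertal and control, Wfs1 and Creb3l2 had the smallest p, at 0.40 and 0.27 (adjusted p = 0.999 for both).

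The list of other ER chaperones and folding enzymes also had no gene past the test in any comparison. Early life was lower than peripubertal for 15 of 20 genes, with a median of -0.22, of which Uggt1, the sensor of glycoprotein folding, at -0.42 and the isomerase Pdia5 at -0.71 had the smallest p (adjusted p = 0.152 and 0.168). Against control, 13 of 20 were lower in early life, with a median of -0.13 that turned to 0.15 under median centring, where the all-gene median was 0.17. Erp44, which retains unassembled proteins, differed there by 0.37 (adjusted p = 0.227) and Pdia5 by -0.64 (adjusted p = 0.249). Peripubertal levels were higher than control for 17 of 22 genes, with a median of 0.14, and the smallest p belonged to Hyou1 at -0.78 and Uggt1 at 0.23 (adjusted p = 0.999 for both). The peripubertal level of Hyou1 rested on 2 samples of a single array.

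Genes of translocation into the ER and of signal peptide cleavage showed 14 of 17 lower in early life than in peripubertal samples, with a median of -0.22, and 15 of 17 higher in peripubertal samples than in control, with a median of 0.20. None passed. Tram1, a translocon protein, differed by -0.95 (SE 0.20, adjusted p = 0.0987) and Ssr2, a subunit of the translocon-associated complex, by -1.08 (SE 0.31, adjusted p = 0.126) between early life and peripubertal. Against control they differed by -0.74 (adjusted p = 0.208) and -0.98 (adjusted p = 0.196), while the list's median of -0.08 turned to 0.25 under median centring. Early life levels of Tram1 and Ssr2 each rested on 2 samples of a single array, as did the Tram1 control level. Srprb and Ssr3 had the smallest p between peripubertal and control, at 0.52 and 0.28 (adjusted p = 0.999 for both).

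ER-associated degradation genes were evenly split between early life and peripubertal, with 7 of 15 higher, a median of -0.01 and 0.06 under median centring. Derl1, a channel for retrotranslocation, was among the smallest p at 0.54 against peripubertal (SE 0.15, adjusted p = 0.109) and 0.62 against control (SE 0.15, adjusted p = 0.128), next to the lectin Os9 at -0.37 against peripubertal (SE 0.10, adjusted p = 0.102) and the lectin Edem2 at -0.61 against control (adjusted p = 0.298). The early life median against control was -0.01 as well, with 7 of 15 higher, and turned to 0.02 with the processed signals and 0.28 under median centring. Between peripubertal and control, 13 of 17 were higher with a median of 0.09, and Os9 at 0.24 (adjusted p = 0.948) had the smallest p.

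Targets of Atf4 in the integrated stress response were split 6 higher and 6 lower between early life and peripubertal, with a median of -0.06. Cebpb, a transcription factor of this response and of several others, differed by 0.73 (SE 0.21, adjusted p = 0.121) and Slc3a2, an amino acid transporter chain, by -0.55 (SE 0.19, adjusted p = 0.183). The early life and peripubertal levels of Slc3a2 each rested on 2 samples of a single array. Against control, 4 of 13 were higher in early life with a median of -0.15, which median centring turned to 0.09, and Cebpg at -0.51 and Cebpb at 0.47 had the smallest p (adjusted p = 0.27 and 0.288). For peripubertal against control, 5 of 15 were higher with a median of -0.06, turned to 0.10 by median centring, and Slc3a2 at 0.38 and Psat1 at -0.32 led (adjusted p = 0.986 and 0.999).

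**Figure D4:**
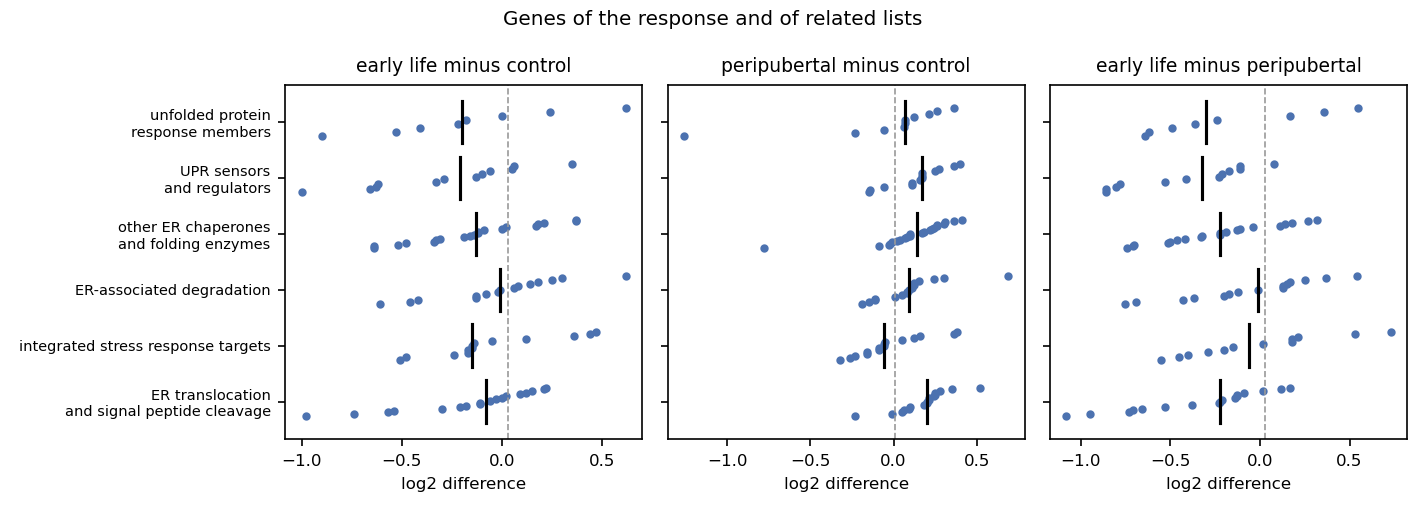
Log2 differences (x axis) of the single genes of the member list and of 5 related lists (y axis), with 1 point a gene, in the 3 comparisons. Vertical bars are list medians and dashed lines the median over all genes. Between early life and peripubertal the medians are -0.30 for the members, -0.32 for sensors and regulators, -0.22 for other chaperones and for translocation, and -0.01 for degradation, with no gene past the test.

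Marker lists of other cells also had unlike levels in the same groups, with no marker past the test, and their part in these differences was not tested. Of the erythroid markers, 7 of 7 measured were lower in early life than in peripubertal samples, with a median of -1.72, and their mean deviation per sample ran from -1.19 to 1.06 in control, -1.51 to -0.40 in early life and 0.51 to 1.54 in peripubertal samples. Of the macrophage markers, 10 of 10 were lower in early life than in peripubertal samples, with a median of -0.63, and the deviation ran from -0.35 to 0.54, -0.48 to -0.06 and -0.23 to 0.77 in the same order. Immediate early genes, which rise within minutes of handling or stimulation, were higher in early life for 9 of 11 genes, with a median of 0.77, and ran from -0.54 to 0.29, -0.06 to 0.82 and -0.71 to 0.01. Plasma cells are rich in ER chaperones. Of the plasma cell and B cell markers 6 were kept, Ighm, Igkc and Ms4a1 were not, and the deviation ran from -0.25 to 0.45 in control, -0.03 to 0.13 in early life and -0.35 to 0.07 in peripubertal samples.

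The genes most like the members in pattern were read from the mean of dye-centred deviations of the 4 members with 12 values, over the 12 channels and 10746 candidate genes. Tmem231 (r = 0.91), Cep170, Plekhf2 and Rbm12b2 (each 0.90) and Vasp (0.87) had the highest correlations. In peripubertal 1 that mean was -0.75, the lowest of the 12 samples, with the low Pdia4 spot among its 4 values, and the correlations were not recomputed without it. For single members, in a step added after seeing the data, Asic2 (0.99), Jag2 and Mlec (0.98) were closest to Hspa5, and Map3k2, Fnip1, Btbd16 and Wdr13 (0.95) to Ddit3. Mlec encodes malectin, an ER lectin that binds new glycoproteins. These correlations are descriptions over 12 channels that share arrays.

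Dim spots lying beside a member's spot on the array were compared in the same way, over 2 to 11 spots a probe. Across the 11 member probes their early life difference ran from -0.12 to 0.16 against control and from -0.22 to 0.22 against peripubertal on the log2 scale. Around Hspa5 (3 spots) the values were 0.11 and 0.22, and around Ddit3 (6 spots) they were 0.16 and 0.10. The part of local array signal in the members' differences was not tested.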

How the data were processed

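Pituitary RNA of 12 mice was read on 6 Agilent 2-colour arrays. The deposited scanner files give raw spot intensity and local background with outlier and background marks; per the file headers, the software was Agilent Feature Extraction 11.0.1.1. The authors' deposited value table gives log2 values with column medians of 0, and the labels do not describe how it was made. It served as an alternative for the deficient groups only.

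Of 44397 features, 1377 control features and spots marked as outliers were left out. Background was corrected with normexp (offset 50), dyes by loess within arrays, and arrays by Aquantile in limma 3.58.1 (R 4.3.3). Spots of a probe were averaged. Probes well above background in at least 4 channels were kept, 24533 of 39429, and the brightest stood for its gene. Of the probes, 27324 were matched to a RefSeq symbol by accession, 3518 by symbol and 551 by synonym, and 8036 were unmatched. Members were found by symbol or synonym. Probe positions are mm9, per the file headers.

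Groups were compared with limma, in a model of diet group and dye, all 12 samples sharing 1 spread, and array as a random block (correlation 0.306, prior degrees of freedom 3.36). P-values are two-sided and Benjamini-Hochberg adjusted over all genes of a comparison. Of the genes, 4668 lacked at least 1 array and have a smaller n. The steps were tested on simulated data. Precision is limited by the 6 arrays.

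All 10 members are named, and of each related list the genes past the threshold and the 2 of smallest p in a comparison. Some genes that this rule takes are not reported here. The members and lists were chosen with earlier results of these data known. Alternatives covered background offset, processed signals, scaling, filters, probe choice, marked spots, blocks, array means, single comparisons and left-out samples or arrays.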

Additional observations from a re-analysis of the deposited data

Results flagged for a closer look

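In 22 sets of 4 values of a member within a group, 4 held a sample far from the other 3, by Dixon's criterion at 95%. Chance meets it in about 1 of 20 sets of independent values. Each set here mixes both dyes and samples that share an array, so that rate need not hold. Hsp90b1 read 15.35 in control 3, against 15.96 to 16.06 in the other control samples. Ddit3 read 10.13 in control 4, against 10.58 to 10.64. Herpud1 read 13.32 in control 2, against 12.90 to 12.97. Trib3 read 11.90 in early life 2, against 10.82 to 10.95 in the other early life samples. The 3 control values came from 3 different animals, and no cause was tested.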

How the results depend on the processing

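No member differed after adjustment under any setting except 3. Treating array-mates as independent gave 1 member (Ddit3) for early life against control and 2 (Hspa5 and Ddit3) against peripubertal, and leaving out the array of early life 3 and 4 gave the same numbers, while leaving out early life 3 alone gave 1 (Hspa5) against peripubertal. Left-out samples or arrays gave 0 to 1 members in the first comparison and 0 to 2 in the second.

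Genes called over the whole array depended on most settings. For early life against control, 18 genes (10 higher, 8 lower) became 42 (16 higher, 26 lower) with processed signals, 12 higher and 12 lower with quantile scaling, 1 with median centring, 0 with all 12 channels above background, 131 with the mean of probes, 589 without the array block, 10 with the replicate block and 11 with the 8 samples alone. For peripubertal against control, 4 genes became 0 with median centring, no filter, all 12 channels, marked spots kept, the replicate block or array means, 20 with the mean of probes or without the array block, and 10 with the 8 samples alone. For early life against peripubertal, 61 genes (23 higher, 38 lower) became 27 (14 higher, 13 lower) with processed signals, 17 (8 higher, 9 lower) with quantile scaling, 5 (all higher) with median centring, 29 without a filter, 0 with all 12 channels, 167 with the mean of probes, 7 with marked spots kept, 1276 without the array block, 6 with the replicate block and 36 with array means. Left-out samples or arrays gave 6 to 2062, 0 to 44 and 6 to 2480 genes, with 2062 and 2480 without the array of early life 3 and 4, and 505 and 1086 without early life 3 alone. The cause was not tested.

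The median over members moved to 0.12 and 0.37 with median centring in the comparisons with control, and between early life and peripubertal to 0.36 with all 12 channels, which keeps fewer members, and to 0.17 in the deposited value table. It ran from -0.43 to 0.03 when samples or arrays were left out, the latter without early life 3 and 4.

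Signs turned for members that did not pass. For early life against control they were Calr at 0.10 (processed signals), 0.00 (quantile) and 0.64 (median centring), and Hsp90b1 at 0.18 and Trib3 at 0.06 with median centring. For peripubertal against control they were Xbp1 at 0.06 and Herpud1 at -0.01 with processed signals, and Atf4 at 0.48 and Xbp1 at 0.01 with median centring. For early life against peripubertal, Pdia4 turned to -0.78 without its low spot. Under the value table's own names, which exchange both deficient groups, early life minus peripubertal was 0.55 for Hspa5, 0.21 for Hsp90b1, -0.57 for Ddit3, 0.73 for Calr, -0.43 for Pdia4, -0.12 for Herpud1, 0.23 for Trib3 and 0.60 for Sdf2l1. For the members without an early life estimate in the main fit it was -0.92 for Atf4 by its brighter probe (limma, adjusted p = 0.176) and 0.12 for Xbp1 (adjusted p = 0.847). When single samples or arrays were left out, Calr ran from -0.28 to 0.27 and Trib3 from -0.44 to 0.09 for early life against control, Pdia4 from -0.78 to 1.5 and Trib3 from -0.50 to 0.03 against peripubertal, and Trib3 from -0.13 to 0.25, Sdf2l1 from -0.14 to 0.57, Ddit3 from -0.06 to 0.17, Herpud1 from -0.04 to 0.18 and Xbp1 from -0.16 to 0.04 for peripubertal against control.

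Replicate numbers did not pair the samples. Correlations of same-numbered samples ran from -0.29 to 0.06, and 0 of 12 samples correlated best with its own number. The fit with the replicate block changed no call of a member. Slide, scan session and diet cannot be told apart against control, and array-mates share a group. Marks removed 26 of 120 member values, most of them in the deficient groups. Xbp1 and the brighter Atf4 probe thus have no early life level without marked spots.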

Other observations

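A list of heat shock genes, the counterpart of the ER chaperones outside the ER, was mostly cytosolic but included the mitochondrial Hspd1 and Hspe1. It had no gene past the test (limma). The median of early life was 0.07 above control and 0.08 above peripubertal, and that of peripubertal against control was -0.02. Hspa1a, an inducible Hsp70, differed by 0.74 between peripubertal and control samples (SE 0.24, adjusted p = 0.772) and differed by -0.87 (SE 0.24, adjusted p = 0.11) between early life and peripubertal. The small heat shock gene Hspb1 differed by 0.78 (adjusted p = 0.218) and 0.65 (adjusted p = 0.225) in early life against control and against peripubertal, Hsp90ab1 by -0.21 (adjusted p = 0.41) against control, and Dnajb1 by -0.18 (adjusted p = 0.999) in peripubertal against control.

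Cd79a, a B cell receptor chain, was the listed marker closest to the threshold, at 1.41 for early life against control (SE 0.24, adjusted p = 0.0534) and 1.23 against peripubertal (SE 0.24, adjusted p = 0.0579). Jchain, the joining chain of secreted antibodies, differed by -1.45 (SE 0.53, adjusted p = 0.218) in early life and by -1 (SE 0.53, adjusted p = 0.999) in peripubertal samples, both against control. Of the other markers, Egr1 at 1.84 (adjusted p = 0.356), Alas2 at -1.63 (adjusted p = 0.233), C1qb at -0.56 (adjusted p = 0.23), Esam at -0.60 (adjusted p = 0.21), Rax at 0.51 (adjusted p = 0.342) and Prl at 0.27 (adjusted p = 0.673) had the smallest p of their lists for early life against control. Posterior lobe markers ran from -0.22 to -0.02 in control, -0.25 to 0.33 in early life and -0.28 to 0.41 in peripubertal samples, and endothelial markers from -0.06 to 0.38, -0.52 to 0.17 and -0.23 to 0.24.

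In the 4 control columns of the authors' deposited table, which equal no scanned channel, Ddit3 read 2.6, 1.06, 3.08 and 1.30 and Hspa5 8.32, 7.64, 8.51 and 7.44, on a log2 scale centred on a column median of 0. Columns 1 and 3 were higher than columns 2 and 4 for both genes. The same held for Ddit3, but not for Hspa5, in the table's early life and peripubertal columns. There the odd-numbered columns hold Cy3 and the even-numbered Cy5 channels, and the part of the dye was not tested. Trib3 read 0.13, -1.01, 0.71 and -0.76 in the control columns, against 2.23 to 3.63 in the deficient ones. Herpud1 read 2.94 to 4.30 against 4.69 to 5.72. For every other member the control and deficient columns overlapped. The origin of the control columns was not tested.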
